A study of Homo sapiens with 4 samples.

Results

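The ligands of the tumour necrosis factor (TNF) superfamily and their receptors were examined in a lung squamous carcinoma line at 0 Gy and 30 Gy (gray measures the absorbed dose of radiation). The genes were taken by name from the deposited expression table. They are the protein-coding genes with a TNFSF or TNFRSF symbol, plus TNF, LTA, LTB, LTBR, FAS, FASLG, CD40, CD70, CD27, EDA, EDAR, EDA2R and NGFR, and number 46 of 58735 genes, 18 ligands and 28 receptors. RNA sequencing gave 4 libraries, 2 at each dose, whose labels name a human lung squamous cell carcinoma cell line and carry only the dose and the numbers 1 and 2 in the library name. The series' design text speaks of SK-MES-1 cells and of a radiotherapy-resistant derivative of them, SK-MES-1-RR. How the libraries map to these lines, whether the dose was split into fractions and when RNA was taken are not stated in the labels. Separate cultures are not stated for the replicates either, so the p-values rest on the spread between libraries alone, and that spread may be technical.

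TNF ligands are mostly membrane proteins that act as trimers, on the cell surface or after a protease has cut them free. Their receptors fall into those with a cytoplasmic death domain, which can recruit FADD and caspase-8 or start NF-kB signalling, those that bind TRAF adaptors directly, and decoys that bind ligand without signalling fully. In epithelial tumours the family is known for TRAIL and FAS killing, for NF-kB activation through the TNF receptors, and for ligands that engage T cells.

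Between 15920861 and 17261121 reads could be recovered from each library. Squamous markers were mostly missing. KRT5, KRT6A, KRT6B and DSG3 had 0 reads in each of the 4 libraries, and the 7 squamous markers summed to 4.23 to 4.26 FPKM at 0 Gy and 3.77 to 3.88 at 30 Gy, of which TP63 gave 3.95 and 4.14 and then 3.34 and 3.19 FPKM. FPKM divides fragments by gene length and library size. For members that share exon bases with other genes, that length equalled all annotated exon bases together. Levels, ranks and shares can therefore be compared between genes only roughly. The 6 general epithelial markers summed to 333 to 344 FPKM at 0 Gy and 368 to 402 at 30 Gy. KRT7 stood at 96.2 and 95.3 FPKM at 0 Gy and 221 and 201 at 30 Gy, KRT19 at 165 and 159 and then 92.8 and 84.1, and EPCAM at 5.91 and 3.83 and then 3.48 and 3.42, while CDH1 had 0 to 7 reads. Markers of immune cells, which use many TNF family genes, each stayed below 1 FPKM in every library. CD3D, CD3E, CD3G, CD2, MS4A1, LYZ and AIF1 had 0 reads throughout, and PTPRC, the pan-leukocyte marker CD45, had 1 to 13 reads. CSF1R was the highest, with 45 and 32 reads at 0 Gy and 79 and 68 at 30 Gy (0.365 to 0.961 FPKM). CD14 had 18 and 20 reads and then 12 and 14, and NKG7 0 and 0 and then 4 and 5. The 8 markers of T and NK cells summed to 0.0804 to 0.107 FPKM at 0 Gy and 0.275 to 0.377 at 30 Gy, and the 6 of macrophages and monocytes to 1.12 to 1.29 and 1.44 to 1.48. The 5 endothelial markers summed to 0.212 to 0.235 and 0.180 to 0.299 FPKM, with CDH5 at 0 reads. The 7 fibroblast markers summed to 62.9 to 63.3 and 72.8 to 79.0 FPKM, of which COL1A1 made up 62.1 to 62.4 and 69.6 to 76.3, while DCN had 0 reads. PDGFRB stood at 0.652 and 0.717 FPKM at 0 Gy and 1.46 and 1.51 at 30 Gy. LUM had 1 and 5 reads and then 43 and 63, and THY1 15 and 12 and then 27 and 34. COL3A1 had 1 to 6 reads and COL1A2 0 to 1.

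Of the 46 genes, 20 had 1 FPKM or more in 2 libraries or more and were tested, 4 ligands and 16 receptors. Another 17 had some reads below that filter and 9 had 0 reads in all 4 libraries. Limma's moderated test on log2(FPKM + 1), adjusted by Benjamini-Hochberg over all 13379 tested genes, called 3 members higher and 4 lower at 30 Gy at an adjusted p under 0.05. The higher ones were the ligands TNFSF10 (TRAIL) and CD70 and the receptor TNFRSF21 (DR6). The lower ones were the receptors TNFRSF18 (GITR), TNFRSF9 (CD137), TNFRSF14 (HVEM) and LTBR. These 7 of 20 members make 35.0%, beside 19.8% of all tested genes. By direction, 10.8% of all tested genes were called higher and 9.06% lower. Of the 20 members, 10 had an unadjusted p under 0.05 by limma, beside 5049 of all 13379 tested genes. The median log2 change of the 20 was -0.099, against -0.00068 over all tested genes. The libraries of the 2 doses did not overlap for 14 of the 20 members, beside 65.2% of all tested genes. Voom on reads recovered from the FPKM called 10 of the 20 members, the same 7 plus FAS, TNFRSF1A and TNFRSF10B, beside 31.6% of all tested genes.

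**Figure D1:**
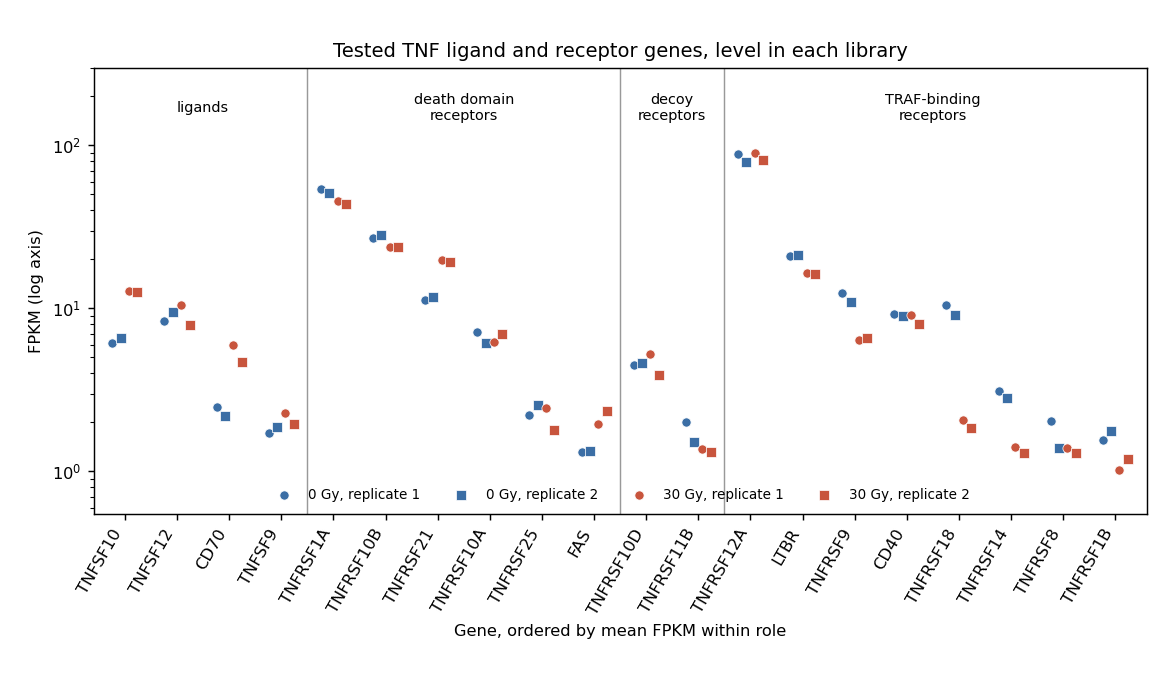
FPKM (log axis) of the 20 tested ligand and receptor genes in each library, grouped by role and ordered by mean level; blue marks are 0 Gy, red marks 30 Gy, circles replicate 1 and squares replicate 2. TNFRSF12A is the highest gene in every library and the 4 called receptors of the TRAF-binding group sit lower at 30 Gy.

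The sequences before the start sites of TNFRSF21, TNFSF10 and TNFRSF18 are shown because these genes changed in opposite directions and, with TNFRSF9, kept their calls when any single library was left out and the filter applied again. With the same genes tested and either 0 Gy library left out, 0 members passed, and the lowest adjusted p by limma was 0.0757 and 0.0696 (TNFRSF18). They are RefSeq sequences on GRCh38.p14, 5′ to 3′ on the gene's strand, taken from the 250 bases before the RefSeq start and shortened so that no annotated exon is included. RefSeq promoters were found for 29 of the 46 members and 6 of the 7 called ones. Capitals mark the GC box GGGCGG or the TATA box TATAAA, searched on both strands (a GC box on the opposite strand reads ccgccc). TNFRSF21 lies at chr6:47309906-47310155 (minus strand), TNFSF10 at chr3:172523508-172523680 (minus strand) and TNFRSF18 at chr1:1206692-1206842 (minus strand).
TNFRSF21: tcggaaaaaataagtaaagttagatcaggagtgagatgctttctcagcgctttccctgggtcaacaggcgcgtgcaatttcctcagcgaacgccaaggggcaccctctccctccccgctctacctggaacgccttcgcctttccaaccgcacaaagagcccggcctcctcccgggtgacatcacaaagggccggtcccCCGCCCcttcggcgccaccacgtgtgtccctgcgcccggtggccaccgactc
TNFSF10: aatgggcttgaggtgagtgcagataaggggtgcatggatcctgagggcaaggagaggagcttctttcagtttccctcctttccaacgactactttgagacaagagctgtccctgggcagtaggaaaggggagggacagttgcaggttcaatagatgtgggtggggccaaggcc
TNFRSF18: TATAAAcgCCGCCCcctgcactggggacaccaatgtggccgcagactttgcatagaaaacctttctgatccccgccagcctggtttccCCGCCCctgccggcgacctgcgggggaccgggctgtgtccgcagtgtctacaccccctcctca

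The 250 bases before the TNFRSF21 start held 62.0% G or C and 1 GC box. Those of TNFRSF18 held 65.6%, with 3 GC boxes and a TATA box 250 bases before the start. The TNFRSF18 GC box at 39 to 34 bases lies in a part not shown. Those of TNFSF10 held 49.6%, with a TATA box 31 bases before the start, also in a part not shown. The RefSeq starts of TNFRSF18 and TNFSF10 lie 99 and 77 bases inside the genes as deposited. The median over 27305 RefSeq promoters was 58.0%, of which 42.3% held a GC box and 11.1% a TATA box. The TNFRSF9 window held 1 GC box, as that of TNFRSF21 did. It also held a kappaB match, the binding pattern of NF-kB, at 74 to 64 bases before the start (GGGAATTTCCC). At 46 to 38 bases it held GCTGAGTCA, where an AP-1 element (TGANTCA) and an antioxidant response core (TGACNNNGC) overlap. TNFRSF14 held a kappaB match 86 to 75 bases before its start (GGGGGGCTCCCC), and annotated exons cover its whole window. The LTBR window held 4 GC boxes, though its RefSeq start lies 9117 bases inside the gene as deposited. The starts of TNFRSF9 and TNFRSF14 lie 2326 and 732 bases inside. The longest stretch free of annotated exons ran from 250 to 95 bases before the start for TNFRSF9 and from 250 to 130 for LTBR. Every TNFRSF9 match named here lies outside that stretch, as do the LTBR GC boxes other than the one at 230 to 225 bases. Of all promoters 9.57% held a kappaB match, 6.60% an AP-1 element and 11.0% an antioxidant response core, on either strand, and of the 29 member promoters 4, 5 and 6 did. A match describes letters only, and no binding was measured.

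Among the ligands, TNFSF10 and CD70 were higher at 30 Gy, and most of the others were hardly expressed. TNFSF10 encodes TRAIL, which kills through the death receptors TNFRSF10A and TNFRSF10B (3:172505508-172523507, minus strand, hg38). It stood at 6.14 and 6.62 FPKM at 0 Gy and 12.8 and 12.7 FPKM at 30 Gy, so both 30 Gy libraries lay well above both 0 Gy libraries. The fold was 2.00 by mean FPKM, and the log2 change of the fit was 0.90 ± 0.07 (SE, n = 2 per group), with an adjusted p of 0.0040 by limma. CD70, the ligand of CD27 on lymphocytes (19:6583183-6604103, minus strand), stood at 2.48 and 2.19 FPKM at 0 Gy and 5.93 and 4.72 at 30 Gy. The groups did not overlap, though the 30 Gy libraries differed from each other by more than the 0 Gy libraries did. The fold was 2.28 and the log2 change 0.92 ± 0.13 (SE), with an adjusted p of 0.0127 by limma. The CD70 call was lost without the first 0 Gy library (adjusted p = 0.0563, change 0.98) and without the second (0.0656, change 0.86), and when every gene above 0 was tested (0.0774).

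TNFSF12 and TNFSF9 did not pass. TNFSF12 encodes TWEAK, the ligand of TNFRSF12A, and was the most abundant ligand at 0 Gy, with 8.35 and 9.49 FPKM there and 10.5 and 7.89 FPKM at 30 Gy. The groups overlapped, with a log2 change of 0.03 and a 95% confidence interval from -0.34 to 0.40. Of its exon bases 29.4% are shared with the readthrough gene TNFSF12-TNFSF13, which had 0 to 3 reads, so the split of reads between these genes is uncertain. TNFSF9, the ligand of TNFRSF9, stood at 1.73 and 1.87 FPKM at 0 Gy and 2.29 and 1.96 at 30 Gy. Its groups did not overlap, but the change of 0.16 had an interval from -0.14 to 0.46.

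The 14 other ligands stayed below the filter. TNFSF4 (OX40 ligand) came nearest, with 1.12 and 0.895 FPKM at 0 Gy and 0.715 and 0.749 at 30 Gy, followed by TNFSF13B (BAFF, a B-cell survival factor) with 0.488 and 0.481 against 0.184 and 0.288. TNFSF13 (APRIL) stood between 0.328 and 0.414 FPKM. TNFSF18, the GITR ligand, had 5 and 2 reads at 0 Gy and 1 and 0 at 30 Gy. TNFSF15 had 2 to 7 reads, EDA 0 to 6, LTB 0 to 3, TNFSF12-TNFSF13 0 to 3, FASLG 0 to 2 and TNFSF11 (RANK ligand) 0 to 2. TNF itself, LTA, TNFSF8 and TNFSF14 had 0 reads in each library. For 8 of the 9 members at 0, TNFRSF6B set aside, the upper limit that a count of 0 allows (3 reads per library, counting error only) equals 0.0361 to 0.169 FPKM, and no difference was detectable. Voom without the filter called no member that was outside the limma test.

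Summed over the 18 ligands, the level was 21.0 and 22.0 FPKM at 0 Gy and 33.1 and 28.8 FPKM at 30 Gy. TNFSF10 made up 29.3% and 30.1% of the ligand sum at 0 Gy and 38.8% and 44.1% at 30 Gy. TNFSF12 made up 39.8% and 43.1% and then 31.8% and 27.5%. By FPKM the highest ligand was thus TNFSF12 at 0 Gy and TNFSF10 at 30 Gy, in both libraries of each dose. In these bulk libraries a change in every cell and a change in the number of expressing cells cannot be told apart.

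Of the 8 receptors with a death domain 6 were tested, and TNFRSF21 alone was called (16.7% of the 6, beside 19.8% of all tested genes). TNFRSF21 encodes death receptor 6 (6:47231532-47309905, minus strand), which can bind TRADD and for which no ligand of the TNF superfamily is established. It stood at 11.3 and 11.7 FPKM at 0 Gy and 19.8 and 19.4 FPKM at 30 Gy. The 2 libraries of each dose lay close together and far from the other dose. The fold was 1.70 and the log2 change 0.72 ± 0.06 (SE), with an adjusted p of 0.0047 by limma. FAS, the receptor of FAS ligand, stood at 1.32 and 1.34 FPKM at 0 Gy and 1.94 and 2.35 at 30 Gy. Its groups did not overlap, and its log2 change of 0.43 ± 0.13 (SE) did not pass with limma (adjusted p = 0.0746) and did with voom on the recovered reads (adjusted p = 0.0288, change 0.66). The exons of FAS share 8.93% of their bases with ACTA2 on the opposite strand, which had 18 and 21 reads at 0 Gy and 76 and 25 at 30 Gy. Whether the counting used strand is not stated, so reads in the shared bases cannot be told apart.

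TNFRSF10A, TNFRSF10B, TNFRSF10D and TNFRSF11B, the tested receptors that bind TRAIL, were not called. TNFRSF10B (DR5) stood at 26.9 and 28.0 FPKM at 0 Gy and 23.8 and 23.7 at 30 Gy. Both 30 Gy libraries were lower, with a change of -0.20 and an interval from -0.36 to -0.05 (adjusted p = 0.0729 by limma, 0.0270 by voom). TNFRSF10A (DR4) stood at 7.20 and 6.10 FPKM and then 6.24 and 6.99, overlapping, with an interval from -0.27 to 0.26. Of its exon bases 9.01% are shared with AC100861.1 (61 to 81 reads) and 7.59% with TNFRSF10A-AS1 (26 to 53 reads), both on the opposite strand. The decoy TNFRSF10D stood at 4.50 and 4.62 FPKM and then 5.28 and 3.93, also overlapping, with an interval from -0.34 to 0.34, and the decoy TNFRSF10C had 1 to 6 reads. The 4 TNFRSF10 genes are neighbours with related sequences, so the share of reads given to each is uncertain.

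TNFRSF1A, the main TNF receptor of epithelium, was the second most abundant member, with 54.0 and 50.9 FPKM at 0 Gy and 45.5 and 43.7 at 30 Gy. The doses did not overlap, and the change of -0.23 ± 0.06 (SE) missed the threshold (adjusted p = 0.0650 by limma). It passed with quantile normalization (0.0345), at a filter of FPKM 5 (0.0453) and with voom (0.0130). TNFRSF25 (DR3) stood at 2.21 and 2.55 FPKM and then 2.46 and 1.81, with an interval from -0.49 to 0.25; 8.94% of its exon bases are shared with ESPN on the opposite strand. NGFR had 5 to 8 reads and EDAR 0 reads.

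Of the 4 decoy receptors 2 were tested and 0 called. TNFRSF11B, osteoprotegerin, which binds RANK ligand and TRAIL, stood at 2.01 and 1.52 FPKM at 0 Gy and 1.37 and 1.31 at 30 Gy. Its groups did not overlap, but the 0 Gy libraries differed by more than the gap between the doses, and the change of -0.23 had an interval from -0.60 to 0.14. TNFRSF6B had 0 reads in each library. All of its exon bases are shared with the readthrough gene RTEL1-TNFRSF6B, which had 34 to 64 reads, so its level is uncertain.

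**Figure D2:**
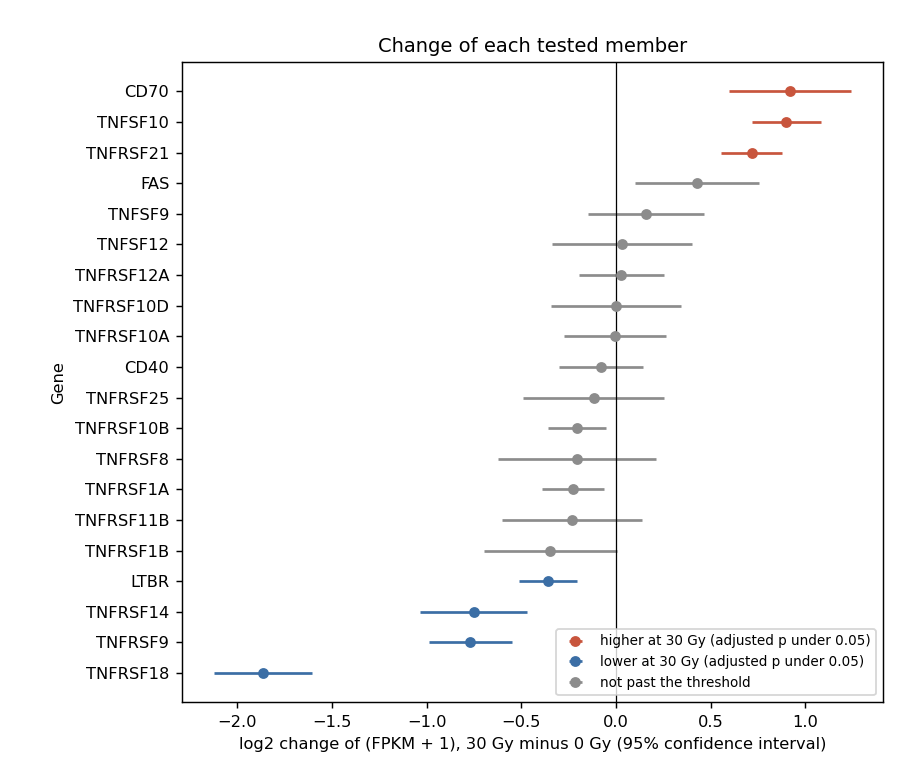
Log2 change of (FPKM + 1), 30 Gy minus 0 Gy, for each of the 20 tested members, with its 95% confidence interval from limma; red is called higher, blue called lower and grey not past the threshold. TNFRSF18 stands apart at -1.87, and the intervals of FAS, TNFRSF10B and TNFRSF1A lie on 1 side of 0 although their adjusted p missed 0.05.

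Among the 16 TRAF-binding receptors 8 were tested, 4 were lower and 0 higher, beside 9.06% lower and 10.8% higher among all tested genes. TNFRSF18 encodes GITR, a costimulatory receptor best known on regulatory T cells (1:1203508-1206691, minus strand). It stood at 10.4 and 9.06 FPKM at 0 Gy (249 and 211 reads) and at 2.06 and 1.84 FPKM at 30 Gy (45 and 40 reads). Both 30 Gy libraries lay far below both 0 Gy libraries. Its level was 5.01-fold lower at 30 Gy. The log2 change was -1.87 ± 0.10 (SE), with an adjusted p of 0.0018 by limma, and it ranked 21 among 13379 genes from the largest fall.

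TNFRSF9 encodes CD137, a costimulatory receptor of activated T cells and a known NF-kB target (1:7915894-7943165, minus strand). It stood at 12.5 and 11.0 FPKM at 0 Gy and 6.38 and 6.56 FPKM at 30 Gy. The groups did not overlap, and the level was 1.82-fold lower at 30 Gy, with a log2 change of -0.77 ± 0.09 (SE) and an adjusted p of 0.0080 by limma. When every gene above 0 was tested its adjusted p was 0.0516. TNFRSF14 encodes HVEM, which binds LIGHT (TNFSF14) and the T-cell receptor BTLA (1:2555639-2565382, plus strand). It stood at 3.12 and 2.82 FPKM at 0 Gy and 1.41 and 1.30 FPKM at 30 Gy. The groups did not overlap, with a 2.19-fold lower level and a log2 change of -0.75 ± 0.11 (SE, adjusted p = 0.0149 by limma). The call was lost without the first 0 Gy library (adjusted p = 0.0939, change -0.70) and without the second (0.0708, change -0.81), and when every gene above 0 was tested (0.0773). Of the TNFRSF14 exon bases 13.4% are shared with an antisense gene, TNFRSF14-AS1, which had 1 to 8 reads.

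LTBR, the lymphotoxin beta receptor, which activates the alternative NF-kB route (12:6375045-6391571, plus strand), stood at 20.9 and 21.4 FPKM at 0 Gy and 16.4 and 16.2 FPKM at 30 Gy. The libraries of each dose lay close together and apart from the other dose. The level was 1.30-fold lower, and the log2 change was -0.36 ± 0.06 (SE, adjusted p = 0.0199 by limma). The LTBR call was lost whichever library was left out, with a change from -0.37 to -0.34. Its adjusted p by limma became 0.0907 when 0 Gy replicate 1 was left out, 0.102 for 0 Gy replicate 2, 0.0625 for 30 Gy replicate 1 and 0.0650 for 30 Gy replicate 2. It was also lost when every gene above 0 was tested (0.0527). Of the LTBR exon bases 6.72% are shared with SCNN1A on the opposite strand, which had 73 to 93 reads.

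**Figure D3:**
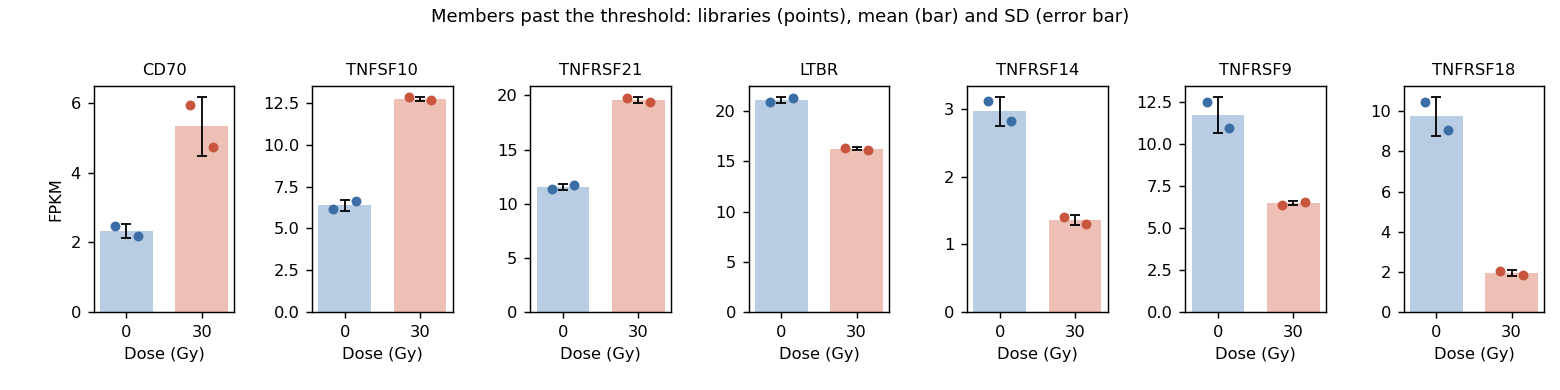
FPKM of the 7 called members at 0 Gy and 30 Gy; points are the 2 libraries, bars the mean and error bars the SD, and each panel has its own axis from 0. CD70, TNFSF10 and TNFRSF21 are higher and LTBR, TNFRSF14, TNFRSF9 and TNFRSF18 lower at 30 Gy, with no overlap between the doses in any panel. The panels were chosen by adjusted p, and the doses do not overlap for 65.2% of all tested genes.

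TNFRSF12A (FN14), the TWEAK receptor, was the most abundant member in every library, with 88.8 and 79.1 FPKM at 0 Gy and 89.8 and 81.4 at 30 Gy. The groups overlapped, and the change of 0.03 had an interval from -0.19 to 0.25. It made up 34.1% and 32.5% of the summed receptor level at 0 Gy and 37.9% and 36.6% at 30 Gy. CD40, which binds CD40 ligand of T cells, stood at 9.28 and 8.96 FPKM and then 9.17 and 8.01, overlapping, with an interval from -0.30 to 0.14. TNFRSF1B, the second TNF receptor, stood at 1.56 and 1.78 FPKM and then 1.01 and 1.19, not overlapping, with a change of -0.35 and an interval from -0.70 to 0.0038. TNFRSF8 (CD30) stood at 2.04 and 1.40 FPKM and then 1.39 and 1.29, with an interval from -0.62 to 0.21.

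The 8 other TRAF-binding receptors were below the filter. TNFRSF11A (RANK) stood at 0.964 and 0.824 FPKM at 0 Gy and 1.35 and 0.901 at 30 Gy, and reached 1 in a single library. TNFRSF19 (TROY) had 10 and 4 reads at 0 Gy and 19 and 20 at 30 Gy. CD27, the receptor of CD70, had 4 to 11 reads, and 37.0% of its exon bases are shared with CD27-AS1. TNFRSF13C had 3 to 19 reads and TNFRSF4 0 to 2, while TNFRSF13B, TNFRSF17 and EDA2R had 0.

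The receptors summed to 260.0 and 244 FPKM at 0 Gy and 237 and 222 at 30 Gy. TNFRSF12A, TNFRSF1A, TNFRSF10B, LTBR and TNFRSF21 together made up 77.7% and 78.4% of that sum at 0 Gy and 82.5% and 82.9% at 30 Gy. At 0 Gy the order from the top was TNFRSF12A, TNFRSF1A, TNFRSF10B, LTBR and then TNFRSF9, TNFRSF21 and TNFRSF18 close together, with mean levels of 11.7, 11.5 and 9.75 FPKM. The libraries of TNFRSF9 and TNFRSF21 interleaved there. At 30 Gy TNFRSF21 came ahead of LTBR, and TNFRSF9 and TNFRSF18 fell to means of 6.47 and 1.95 FPKM.

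Ligands and receptors of known pairs can be set side by side. TNFSF10 was tested with TNFRSF10A, TNFRSF10B, TNFRSF10D and TNFRSF11B, TNFSF12 with TNFRSF12A, and TNFSF9 with TNFRSF9. In the last pair the ligand's log2 change was 0.16 and the receptor's -0.77. CD70 was tested without CD27, and TNFRSF18 and TNFRSF14 without TNFSF18 and TNFSF14. FAS likewise stood without FASLG.

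Several members lie together in the genome. The stretch of chromosome 1 from 1203508 to 12209228 (hg38) holds 7 receptors, TNFRSF18, TNFRSF4, TNFRSF14, TNFRSF25, TNFRSF9, TNFRSF8 and TNFRSF1B. Of the 6 tested there 3 were lower and 0 higher, beside 9.06% lower and 10.8% higher among all tested genes. The counts of neighbours below stand beside the same shares and are given as descriptions. The 50 other tested genes within 1 Mb of TNFRSF18 had a median log2 change of -0.09, with 2 higher and 4 lower. The 20 around TNFRSF14 had a median of -0.07, with 0 higher and 2 lower, and the 10 around TNFRSF9 a median of -0.23, with 0 higher and 3 lower. CD70 lies between TNFSF9 and TNFSF14 on chromosome 19, where the 31 neighbours had a median of -0.05, with 0 higher and 2 lower. LTBR lies near TNFRSF1A on chromosome 12, where the 39 neighbours had a median of 0.18, with 6 higher and 3 lower. TNFRSF21 had 5 tested neighbours with a median of 0.49, of which 2 were higher and 1 lower, and TNFSF10 had 6 with a median of 0.12, of which 2 were higher. The part of neighbouring genes in these changes was not tested.

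Among other genes of the pathway, for receptor signalling and ligand shedding, 63 tested genes on 5 lists gave 8 higher and 6 lower. These 14 are 22.2% of the tested genes on the lists, close to the 19.8% called among all tested genes, and the counts of single lists below are given as descriptions. Of 21 tested adaptors 1 rose and 1 fell, with a median log2 change of 0.0024. BIRC2, the ubiquitin ligase cIAP1 that binds TRAF2, stood at 9.17 and 9.88 FPKM at 0 Gy and 14.8 and 16.9 at 30 Gy and rose by 0.68 (adjusted p = 0.0118 by limma). TRAF3, which with TRAF2 and the cIAPs marks the kinase MAP3K14 for breakdown, stood at 11.9 and 10.8 and then 9.03 and 8.36 FPKM and fell by 0.35 (adjusted p = 0.0446). Of 8 tested genes of death-inducing signalling 0 were called, with a median of 0.08; CASP8 changed by 0.11 and its inhibitor CFLAR by 0.05.

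Of 14 tested genes of the NF-kB core 1 rose and 2 fell, with a median of -0.15. MAP3K14 (NIK), the kinase of the alternative NF-kB route used by LTBR, stood at 20.3 and 20.1 FPKM at 0 Gy and 12.6 and 12.2 at 30 Gy, a log2 change of -0.66 (adjusted p = 0.0056 by limma). NFKBIA, the inhibitor that NF-kB itself induces, stood at 27.6 and 23.4 and then 17.2 and 18.5 FPKM, a change of -0.49 (adjusted p = 0.0315). TNIP1, which restrains NF-kB with TNFAIP3, rose by 0.26 (adjusted p = 0.0364). RELA changed by 0.0039.

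Known NF-kB target genes went both ways, with 4 higher and 4 lower of 17 tested and a median of -0.02. IL6 rose from 0.361 and 0.341 FPKM to 2.21 and 2.61, CCL2 from 2.89 and 3.20 to 7.79 and 9.12, and PTGS2 from 0.393 and 0.547 to 1.95 and 2.43. IL6 and PTGS2 reached 1 FPKM only at 30 Gy, so they entered the test only through the dose at which they were high. The calls of IL6 and PTGS2 are given as descriptions. IER3 rose from 52.3 and 50.1 FPKM to 97.1 and 84.4. CXCL2 fell from 11.0 and 10.3 FPKM to 4.05 and 3.86, TNFAIP2 from 30.4 and 28.4 to 16.7 and 15.8, and ICAM1 from 12.8 and 14.6 to 9.35 and 8.70. NFKBIA, given above, was the other that fell. IER3 and ICAM1 lay outside the 5 largest changes of their list and were named after their values were seen, to complete the count. Their adjusted p ran from 0.0023 (CXCL2) to 0.0315 (NFKBIA) by limma. Among 6 tested genes of ligand shedding 2 rose and 0 fell. These were RHBDF2, a partner of the TNF-cleaving protease ADAM17, by 0.52 (adjusted p = 0.0105), and SPPL2A, an intramembrane protease, by 0.33 (adjusted p = 0.0440).

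**Figure D4:**
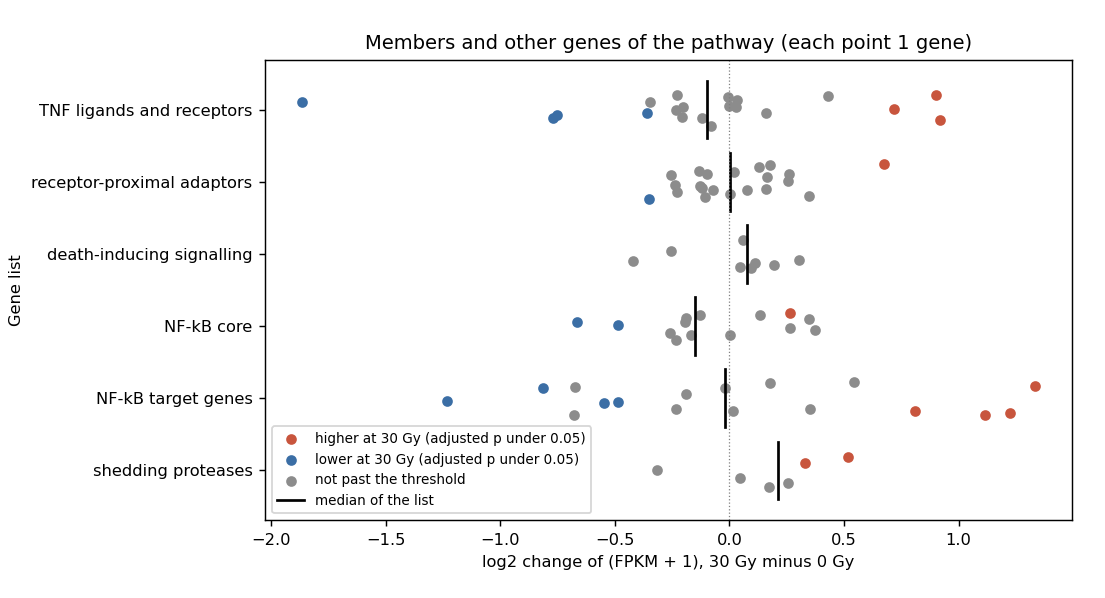
Log2 change of (FPKM + 1), 30 Gy minus 0 Gy, of the 20 tested members and of the tested genes on 5 lists of the pathway; each point is 1 gene, red called higher, blue called lower, grey not past the threshold, and the black bar is the median of the list. The NF-kB targets spread to both sides, with 4 higher and 4 lower, while the death-inducing genes hold 0 called. Of the higher targets, IL6 and PTGS2 reached the filter only at 30 Gy.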

How the data were processed

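RNA sequencing of 4 libraries (2 at 0 Gy, 2 at 30 Gy) was deposited by the authors as 1 table of FPKM values with gene names, positions and lengths, and the submitters' processing notes name hg38. Which aligner, counter or annotation was used is not given in the sources used here. Multiplied by gene length, 100% of the deposited FPKM values above 0 came out as whole reads once divided by the library's smallest step (tolerance 0.001). Genes that reached 1 FPKM in 2 or more libraries entered limma 3.58.1 (R 4.3.3; lmFit and trended eBayes) as log2(FPKM + 1), with two-sided tests, no covariate and Benjamini-Hochberg adjustment over 13379 genes. The log2 scale with its pseudocount of 1 understates changes of low genes, so folds are ratios of mean FPKM. The script was tested on simulated data. Exon overlaps come from GENCODE 29, promoters from RefSeq. Every tested member is named, and up to 5 called genes per list. A further marker list is not reported here. Members and lists were chosen with earlier results of these data known. Alternatives were another pseudocount, filters and scalings, robust eBayes, voom, leaving out single libraries, and a replicate block. Some were added after seeing the data.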

Additional observations from a re-analysis of the deposited data

How the results depend on the processing

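The 7 called members kept their direction under every alternative in which they were tested. Of the 13 uncalled members 6 changed sign under some alternative, none of them past the threshold there, and the cause was not tested. TNFRSF10D (0.000093) became -0.0023 with the other pseudocount, -0.018 with median centring, -0.020 with quantile normalization and -0.019 with voom, filtered or not. TNFRSF12A became -0.030 with quantile normalization. Leaving out single libraries gave -0.17 to 0.0076 for CD40, -0.11 to 0.099 for TNFRSF10A, -0.175 to 0.175 for TNFRSF10D, -0.053 to 0.11 for TNFRSF12A, -0.27 to 0.033 for TNFRSF25 and -0.155 to 0.216 for TNFSF12. With every gene above 0 tested, the fit covered 30687 genes and 37 members in place of 13379 and 20. It called 2 members higher in place of 3 and 1 lower in place of 4. In all it called 604 genes (against 2654) and 5 pathway genes (against 14). Voom called 4227 genes and 25 pathway genes. Leaving out 1 library, with the filter applied again or with the same genes tested (the latter added after seeing the data), gave 0 to 3 members higher, 0 to 3 lower, 0 to 1411 genes in all and 0 to 11 pathway genes. The zeros came without either 0 Gy library and with the same genes tested, which leaves that dose with a lone library assumed to vary like the other group; 3422 and 3460 genes then had an unadjusted p under 0.05, 8 members among them each time, and the lowest adjusted p of a member was 0.0757 and 0.0696. With the filter applied again, TNFRSF18, TNFRSF9, TNFRSF21 and TNFSF10 passed whichever library was left out. The replicate block called 1926 genes and the same 7 members. Same-numbered libraries did not deviate together (r = -0.026 over 13379 genes), so the numbers are not taken as pairs. At a filter of FPKM 5, CD70 and TNFRSF14 were not tested. At this depth no difference was detectable for 8 of the 9 members with 0 reads.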
